A study of Mus musculus with 4 samples.

Results

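The clustered protocadherins are cell-surface adhesion proteins of the cadherin superfamily whose genes lie in 3 tandem arrays, alpha, beta and gamma, on mouse chromosome 18. The genes described here are those of the mm10 annotation with the symbols Pcdha, Pcdhb, Pcdhga, Pcdhgb or Pcdhgc followed by a number, together with Pcdhac1 and Pcdhac2. They number 58 of the 49554 genes annotated on chromosomes 1 to 19 and X: 14 alpha, 22 beta and 22 gamma genes. The gamma genes comprise 12 of type A, 7 of type B and 3 of type C. With 2 kb on each side, the genes span 915589 bp, from 36928285 to 37843873 on chromosome 18. One of them, Pcdhgb8, is annotated as a pseudogene.

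Each alpha or gamma gene begins with its own promoter and its own large variable first exon, which encodes the extracellular cadherin repeats, the membrane span and part of the cytoplasmic tail. That exon is spliced to a few constant exons at the 3' end of the array, which all members of the array share. Beta genes consist of a single large exon and use no shared exons. In neurons, individual cells express different sets of these genes, and DNA methylation of the variable promoters goes along with promoter choice, as does binding of CTCF and cohesin. The C-type genes, Pcdhac1, Pcdhac2, Pcdhgc3, Pcdhgc4 and Pcdhgc5, sit at the 3' ends of the alpha and gamma arrays and are known for a more uniform expression among neurons. The cells studied here are of the germ line and not neurons, and no RNA was measured, so nothing below bears on which of the genes were expressed.

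The cells were germline stem (GS) cells, which are cultured mouse spermatogonial stem cells. They were derived from the testis of wild-type Green mice, listed as C57BL/6 Tg14(act-EGFP)OsbY01, of DBA/2 background, so that both groups carried the same EGFP transgene, driven by an actin promoter according to its name. Both groups grew in an Iscove's-based medium with human FGF2, rat GDNF and fetal bovine serum, and the culture lasted roughly 5 months in the group named 5M-GS and 60 months in the group named 60M-GS. Whole-genome bisulfite sequencing covered 2 replicates per culture age, which were pooled into 1 table per age, and the labels do not say whether replicates came from separate cultures. No spread between replicates can therefore be given. Every test below compares the calls of 2 pooled libraries and not the culture ages, and every interval (95%) covers counting error only, with calls on one read counted as if independent.

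Only CpGs covered by 5 or more calls in each table were used, and a region's level is the share of its summed calls that were methylated, in percent. A region was called when Fisher's exact test (two-sided), adjusted over all regions of its kind in the genome by the Benjamini-Hochberg method, gave a p under 0.05 and the levels differed by at least 20 percentage points. The words gained and lost are used for called regions only. The tables held 468121185 calls on 19371838 CpGs for 5M-GS and 471693518 calls on 19341319 CpGs for 60M-GS, and 72.4% and 76.3% of these calls were methylated. At 4 genes that are unmethylated in germ cells (Dazl, Ddx4, Mael and Sycp3), the windows at the 5' end lay between 2.79% and 11.8% in 5M-GS and between 0.684% and 9.96% in 60M-GS. The maternally imprinted promoters of Peg3, Plagl1 and Kcnq1ot1, unmethylated in the male germ line, lay between 0.952% and 9.504% in 5M-GS and between 0.952% and 9.64% in 60M-GS. The window of Snrpn, at its outermost annotated end and with only 6 CpGs, stood at 41.5% and 55.6%.

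Across the locus, the 60M-GS library was more methylated than the 5M-GS library, and the size of the difference depended on the array. The beta array stood at 38.6% in the 5M-GS and 67.7% in the 60M-GS library, which differ by 29.1 points (28.5 to 29.6). The alpha array stood at 34.7% and 54.1%, a difference of 19.5 points (18.9 to 19.996). The gamma array stood at 29.2% and 39.5%, a difference of 10.3 points (9.79 to 10.7). In these stretches, the order beta, alpha, gamma held in the levels of either library as well as in the differences. They run from 2 kb before the first to 2 kb after the last member of an array. For alpha and gamma they include the constant exons at the 3' end, which beta genes lack. The difference in the beta array exceeded that in the alpha array by 9.60 points (8.84 to 10.4) and that in the gamma array by 18.8 points (18.1 to 19.5), and the alpha array exceeded the gamma array by 9.21 points (8.50 to 9.92).

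The shared 3' parts, which hold the constant exons, stood apart from the variable parts upstream of them. They were taken from 3 kb after the start of the last member of the array to the end that its members share. The alpha shared 3' part was at 72.8% for 5M-GS and 73.1% for 60M-GS, differing by 0.293 points (−1.18 to 1.76). The gamma shared 3' part was at 53.0% and 51.4%, a difference of −1.60 points (−3.48 to 0.279). Both intervals include 0, for the pooled level of each part and not for every stretch within it. The alpha variable part stood at 29.5% for 5M-GS and 51.5% for 60M-GS, a difference of 22.0 points (21.4 to 22.6). This difference was 21.7 points (20.1 to 23.3) larger than that of the alpha shared 3' part. The gamma variable part stood at 27.7% and 39.1%, a difference of 11.4 points (10.9 to 11.8). This difference was 13.0 points (11.0 to 14.9) larger than that of the gamma shared 3' part. The beta array, which has no shared part, differed by more than either variable part. The 2 shared 3' parts did not differ from each other in their change beyond counting error (1.89 points, −0.493 to 4.28).

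The stretches outside the arrays place these values. The DNA between the alpha and beta arrays was at 62.4% and 72.7%, and that between the beta and gamma arrays at 62.0% and 70.8%. The 100 kb upstream of the locus stood at 71.3% for 5M-GS and 82.2% for 60M-GS, whereas the 100 kb downstream stood at 80.8% in both. The level was thus higher in 60M-GS beyond the alpha end of the locus and was the same to the rounding given beyond the gamma end.

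**Figure D1:**
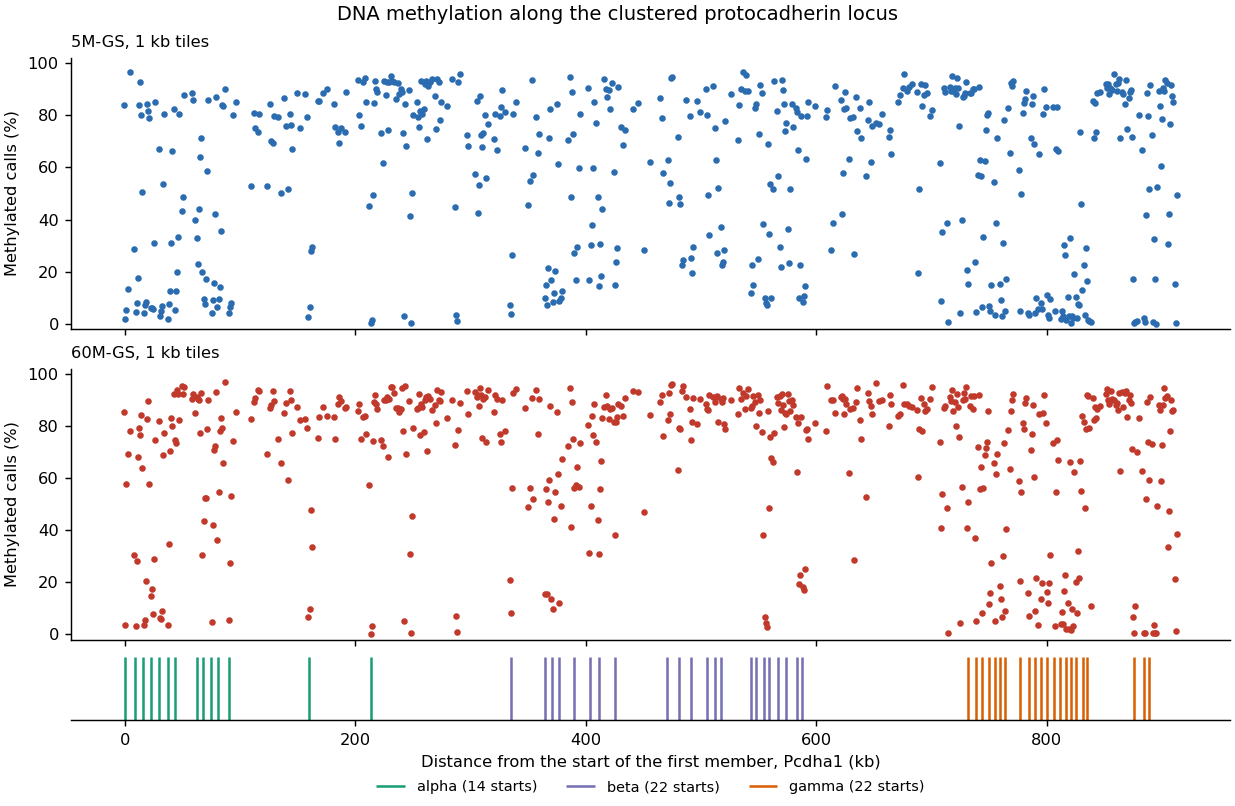
Percent of methylated calls (y axis) in 1 kb tiles along the clustered protocadherin locus for 5M-GS (upper panel) and 60M-GS (middle panel), against the distance in kb from the start of Pcdha1 (x axis); the lowest panel marks the member starts by array. Low tiles at the member starts of the alpha and beta arrays are common in 5M-GS and fewer in 60M-GS, while the gamma array keeps many low tiles in both.

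In tiles of 1 kb with at least 4 CpGs, 117 of the 580 tiles of the locus gained methylation (20.2%, against 3.48 percent of tiles genome-wide) and 2 lost it (0.475 percent genome-wide). The median tile in 5M-GS stood at 71.8% in the locus and at 88.5% genome-wide. Most tiles of the genome thus had no room for a gain of 20 points. The midpoints of 240 tiles lay from 1 kb before to 3.5 kb after a member start. Of these tiles, 93 gained (38.8%) and none lost methylation by Fisher's exact test. Of the other 340 tiles, 24 gained (7.06%) and 2 lost. Most gains therefore lay in this stretch, which takes in the start of a member and its large exon. The 117 gains covered 36 of 125 tiles in the alpha array outside its shared part, 49 of 154 in the beta array, 17 of 141 in the gamma array outside its shared part and 15 of 108 between arrays. In the shared 3' parts, 0 of 33 alpha tiles and 0 of 19 gamma tiles gained methylation, and 1 gamma tile, starting at 37823001 with 9 CpGs, lost it, from 32.4% to 3.70%. When the calls of a tile were divided by its number of CpGs before Fisher's exact test, so that a tile counts about as many observations as a CpG has calls, 44 tiles of the locus were called.

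Neighbouring gained tiles joined into 58 blocks. The longest held 7 tiles, from 37761001 to 37768000, and covered the starts of Pcdhgb8 and Pcdhga12. Its 225 CpGs were at 9.23% for 5M-GS and 76.2% for 60M-GS. Blocks of 4 tiles lay at Pcdha7, Pcdha8, Pcdha9, Pcdha11, Pcdhb8, Pcdhb10 and Pcdhb14.

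Some stretches away from member starts stayed nearly free of methylation in both libraries. Of the tiles outside member starts, 8 were under 10% in each library. The tile of the alpha shared 3' part that starts at 37178001 had 0.436% for 5M-GS and 0.546% for 60M-GS over 20 CpGs. The tile of the gamma shared 3' part that starts at 37825001 had 0% and 0.545% over 17 CpGs. Between the arrays, the tile that starts at 37644001, at one end of Taf7, had 0.686% and 0.521% over 56 CpGs. From 1 kb before to 3.5 kb after a member start, 82 tiles were under 10% in 5M-GS. Of these, 42 were still under 10% in 60M-GS and 9 had reached at least 50%.

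For single genes, 3 regions were compared. The span with 2 kb on each side follows the annotation, but the spans of alpha and of gamma members are nested, since they end at a shared 3' end. The 5' window runs from 1000 bp before to 500 bp after the start. The first 2.5 kb of the gene, roughly the large variable exon, was added after the values had been seen, because the differences lay mostly inside the genes. Neighbouring starts are at least 3779 bp apart and these last regions together reach over 3500 bp, so no window or first 2.5 kb is shared between members. Within a member, the window and the first 2.5 kb share the first 500 bp of the gene.

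Over spans, 19 of the 58 genes gained methylation and none lost it, against 4.35 percent of all annotated genes with a gain and 0.0502 percent with a loss. These were 3 alpha genes (Pcdha5, Pcdha6 and Pcdha7), 16 beta and 0 gamma genes. The span of Pcdha5 gained, from 39.3% to 59.9%, but it runs on over the alpha genes downstream of it. The median span of a beta gene was at 32.1% for 5M-GS and 72.7% for 60M-GS. In 5M-GS, the median span was at 33.0% over the 58 genes and at 74.1% over all annotated genes, which left the latter less room to gain. A beta span held a median of 94.5 CpGs, against 1725.5 for an alpha and 1920 for a gamma span, so the regions compared differ in kind between arrays. With calls divided by the number of CpGs, 3 spans were called.

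In the 5' windows, 13 members gained methylation (22.4%, against 5.7 percent of end windows of all genes) and 1 lost it (0.401 percent). The largest adjusted p among these 14 was 2.17e-05 by Fisher's exact test. In 5M-GS, the median window stood at 11.9% in the members and at 83.0% over both ends of all genes. Most of the latter windows could therefore not rise by 20 points, so the shares are not matched for starting level. Over the first 2.5 kb, 30 members gained methylation (51.7%, against 6.21 percent of the 2.5 kb stretches inside all gene ends) and 0 lost it (0.236 percent), with a largest adjusted p of 3.12e-35 by Fisher's exact test. The level over the first 2.5 kb was higher in 60M-GS for 56 of the 58 genes. The median over the 58 genes was 17.0% for 5M-GS and 41.5% for 60M-GS, while the median difference of all such stretches in the genome was 0.0673 points. The median of all such stretches was 82.1% in 5M-GS, so most of them had no room for a gain of 20 points. With calls divided by the number of CpGs, 7 windows and 14 first stretches of 2.5 kb were still called by Fisher's exact test. The 14 were Pcdha7, Pcdha8, Pcdha11, Pcdhb8, Pcdhb10, Pcdhb11, Pcdhb12, Pcdhb14, Pcdhb15, Pcdhb16, Pcdhb19, Pcdhb20, Pcdhgb8 and Pcdhga12. In 60M-GS, 13 genes stood at 80% or more, 14 stood under 20% and 31 lay in between.

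**Figure D2:**
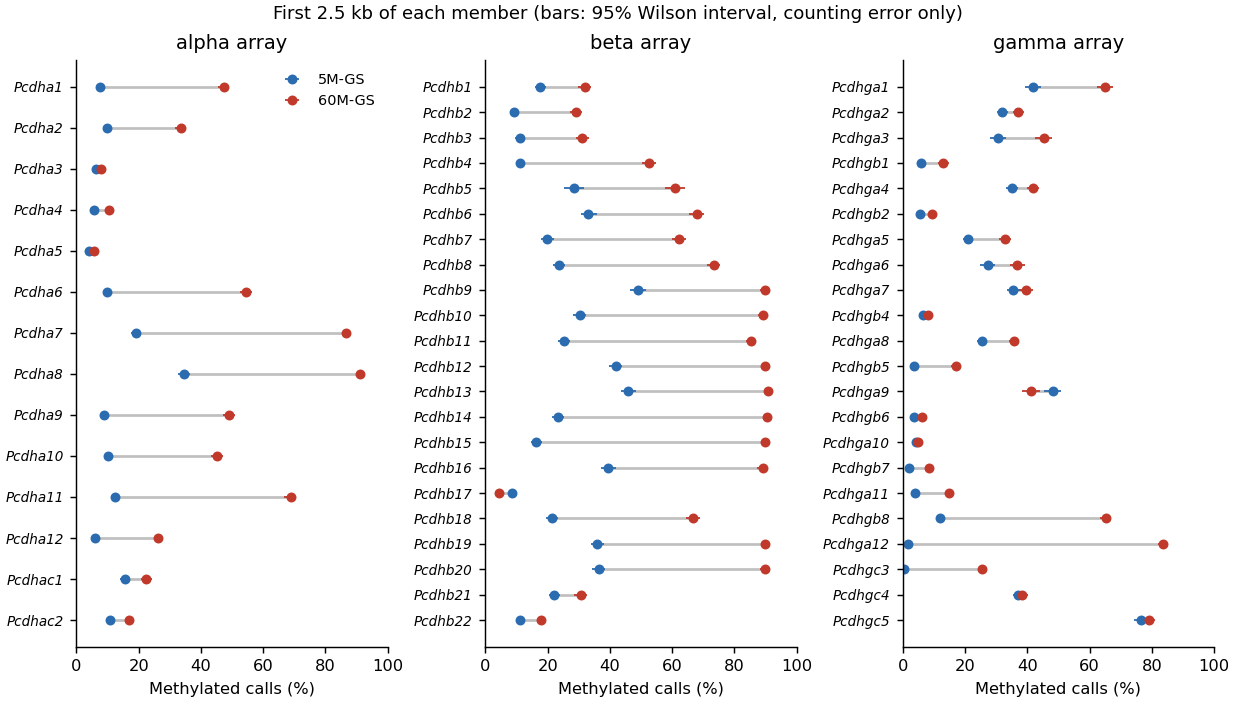
Percent of methylated calls over the first 2.5 kb (x axis) of each of the 58 genes, ordered along the chromosome within the alpha, beta and gamma arrays (y axis), with 1 point for 5M-GS and 1 for 60M-GS and bars for the 95% Wilson interval. The beta genes from Pcdhb9 to Pcdhb16 lie between 85.4% and 90.7% in 60M-GS, whereas 18 of the 22 gamma genes differ by less than 20 points.

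The alpha array begins with 12 numbered genes, of which 9 gained methylation over the first 2.5 kb. Pcdha7 went from 19.1% in 5M-GS to 86.5% in 60M-GS, and Pcdha8 from 34.6% to 91.1%. Pcdha8 had the highest 5M-GS level among the alpha genes in both the first 2.5 kb and the 5' window. Pcdha11 went from 12.5% to 68.8% and Pcdha6 from 9.96% to 54.5%. The gains of Pcdha9 (8.89% to 49.0%), Pcdha1 (7.62% to 47.3%), Pcdha10 (9.99% to 45.1%), Pcdha2 (9.84% to 33.5%) and Pcdha12 (5.89% to 26.3%) left these genes below 50%. The gained genes thus ran from levels under 35% to a wide range of levels.

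The genes between Pcdha2 and Pcdha6 did not gain over the first 2.5 kb. Pcdha3 was at 6.39% for 5M-GS and 8.05% for 60M-GS, Pcdha4 at 5.51% and 10.4%, and Pcdha5 at 4.06% and 5.77%. The gained alpha genes therefore formed 2 stretches, Pcdha1 to Pcdha2 and Pcdha6 to Pcdha12, with these 3 genes of low level between them. Their 5M-GS levels were close to the 5.89% of Pcdha12. That gene gained by 20.4 points (18.7 to 22.2), so its call lies within counting error of the limit of 20.

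The 5' windows of the alpha genes were mostly low in both libraries. They gained in 4 genes: Pcdha7 (17.3% to 74.6%), Pcdha8 (33.4% to 90.3%), Pcdha9 (12.1% to 35.5%) and Pcdha11 (11.7% to 43.8%). The windows of Pcdha1 (1.80% and 2.10%), Pcdha10 (3.87% and 3.29%) and Pcdha2 (9.31% and 8.13%) were not called, although the first 2.5 kb of the same genes gained. In bins of 500 bp, Pcdha1 was at 1.75% for 5M-GS and 1.27% for 60M-GS in the bin that begins at its start, and at 5.94% and 70.0% in the bin from 1000 to 1500 bp. Pcdha6 showed the same layout, with 0.870% and 2.86% in the bin at its start and 18.1% and 81.9% in the bin from 2000 to 2500 bp.

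In the beta array, 17 of 22 genes gained methylation over the first 2.5 kb, against 9 of 14 in the alpha and 4 of 22 in the gamma array. The median of this region in 5M-GS was 23.4% for beta, 9.90% for alpha and 16.5% for gamma genes. In 60M-GS the median was 70.6%, 39.3% and 36.2%. Over this region, alpha genes thus stood below gamma genes in 5M-GS, unlike in the whole arrays. The 14 genes from Pcdhb3 to Pcdhb16 gained without a break. Their median was 26.7% for 5M-GS and 87.2% for 60M-GS, and their levels in 60M-GS ran from 31.1% to 90.7%. Pcdhb15 went from 16.3% to 89.9%, Pcdhb14 from 23.2% to 90.5% and Pcdhb11 from 25.1% to 85.4%. Pcdhb13 went from 45.8% to 90.7%, the highest beta level in 60M-GS. The level in 60M-GS was lower toward the 5' end of this stretch, where Pcdhb3 went from 11.1% to 31.1% and Pcdhb4 from 11.1% to 52.5%.

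The run of gained beta genes was interrupted by Pcdhb17. Its first 2.5 kb stood at 8.45% for 5M-GS and 4.37% for 60M-GS, differing by −4.08 points (−5.51 to −2.67), which is under the limit for a call. In the bin from 1500 to 2000 bp, Pcdhb17 was at 6.34% and 2.40% and Pcdhb16 was at 24.5% and 91.0%. On the other side of Pcdhb17, Pcdhb18 (21.3% to 66.8%), Pcdhb19 (36.0% to 89.9%) and Pcdhb20 (36.4% to 89.7%) gained. The start of Pcdhb17 lies 7253 bp after that of Pcdhb16 and 4444 bp before that of Pcdhb18.

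The genes at the ends of the beta array were not called over the first 2.5 kb. Pcdhb1 was at 17.6% and 31.9%, and Pcdhb2 was at 9.24% and 29.1%, a difference of 19.8 points (17.4 to 22.2) that lies just under the limit of 20. Pcdhb3, with a difference of 20.06 points (17.3 to 22.8), lies just above it. Whether these neighbours fall on one side or the other is within counting error. At the 3' end, Pcdhb21 was at 22.2% and 30.5%, and Pcdhb22 was at 11.1% and 17.9%.

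The 5' windows of the beta genes were more methylated than those of the other arrays already in 5M-GS, with a median of 31.1% against 7.30% in the alpha and 7.58% in the gamma array. They spanned 3.20% at Pcdhb1 and 8.54% at Pcdhb22 to 82.8% at Pcdhb16 and 83.7% at Pcdhb21. Windows gained in 6 genes: Pcdhb15 (14.4% to 86.3%), Pcdhb14 (38.1% to 89.1%), Pcdhb11 (32.2% to 82.0%), Pcdhb10 (50.4% to 79.0%), Pcdhb19 (67.2% to 92.5%) and Pcdhb5 (30.04% to 52.5%). The window of Pcdhb9 lost methylation, from 78.1% to 54.6%, on 7 CpGs. The first 2.5 kb of the same gene gained, from 49.1% to 89.8%. The window of Pcdhb21 differed by −8.40 points (83.7% for 5M-GS and 75.3% for 60M-GS) and was not called.

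Several beta genes had a methylated start and a less methylated interior in 5M-GS. Pcdhb16 was at 83.7% for 5M-GS and 65.4% for 60M-GS in the bin at its start, and at 14.0% and 92.7% in the bin from 2000 to 2500 bp. Pcdhb20 was at 72.2% and 81.4% in the bin at its start and at 22.7% and 87.6% in the bin from 2000 to 2500 bp. The larger difference in these genes lay in the interior, and the start of Pcdhb16 differed the other way. Pcdhb14 and Pcdhb15 instead differed over the whole stretch: Pcdhb15 was at 9.75% and 87.5% in the bin at its start and at 12.5% and 92.2% in the bin from 2000 to 2500 bp. The remaining gained beta genes over the first 2.5 kb were Pcdhb5 (28.4% to 60.9%), Pcdhb6 (33.1% to 67.9%), Pcdhb7 (19.9% to 62.3%), Pcdhb8 (23.5% to 73.4%), Pcdhb10 (30.2% to 89.2%) and Pcdhb12 (41.8% to 89.9%).

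**Figure D3:**
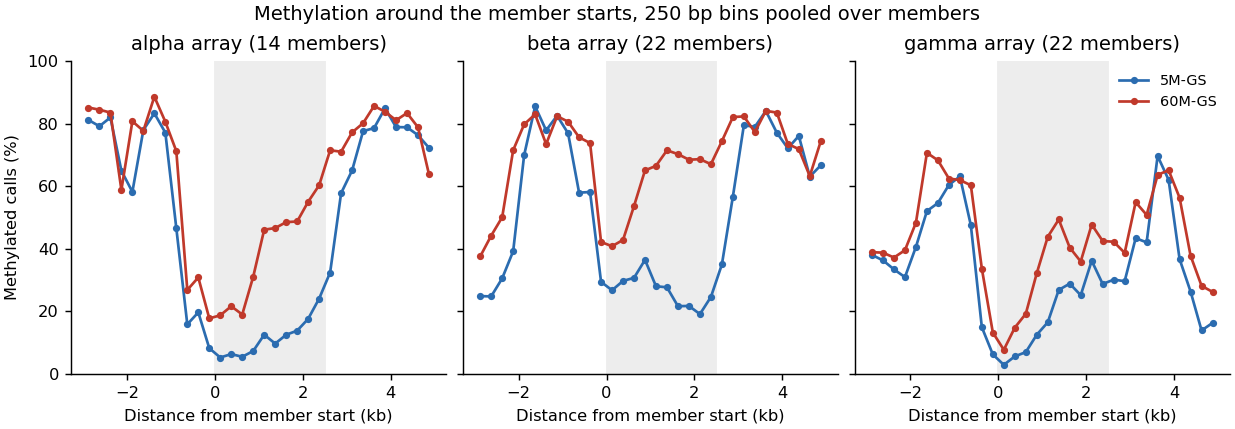
Percent of methylated calls (y axis) in 250 bp bins pooled over the members of each array, from 3 kb before to 5 kb after the member start (x axis, kb), for 5M-GS and 60M-GS; the shaded part is the first 2.5 kb. The gap between the curves is widest from about 1 to 2.5 kb after the start in the alpha and beta arrays, and the lowest gamma levels lie at the start itself.

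Pooled over the genes of an array, the difference between the libraries was larger inside the genes than at their starts. In the beta array, the bin from 0 to 249 bp was at 26.7% and 40.8%, and that from 2000 to 2249 bp at 19.1% and 68.6%. In the alpha array, the bin from 0 to 249 bp was at 5.18% and 18.7%, and that from 2000 to 2249 bp at 17.5% and 55.0%. In the gamma array, the same bins were at 2.84% and 7.66%, and at 36.1% and 47.7%, and the widest difference of the gamma genes lay between them, from 1000 to 1249 bp, at 16.4% and 43.8%. From 3500 to 3749 bp, past the large exon, the beta genes were at 84.1% in both libraries.

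In the gamma array, 18 of 22 genes were not called over the first 2.5 kb, among them the 16 genes from Pcdhga2 to Pcdhga11 that lie next to each other. Their levels ran from 2.12% to 48.2% in 5M-GS and from 4.97% to 45.2% in 60M-GS. Genes of type A and type B are interspersed in this run. Over all 12 type A genes of the gamma array the median was 28.9% for 5M-GS and 38.3% for 60M-GS, and over all 7 type B genes it was 5.64% and 9.26%. The types overlapped, since Pcdhga10 and Pcdhga11 (4.30% and 4.07% for 5M-GS) lay below the type B median. Type B genes had a median of 101 CpGs in this stretch and type A genes one of 78.5. Pcdhga9, at 48.2% and 41.2%, differed by −6.93 points (−10.9 to −2.93) without being called, and Pcdhga10 stood at 4.30% and 4.97%.

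The 4 gained gamma genes lie at the ends of this uncalled run. Pcdhga1, the first gene of the array, went from 41.8% to 65.0%. On the other side, Pcdhga12 went from 1.74% to 83.5%, the largest difference of any of the 58 genes (81.8 points, 80.2 to 83.2). Its neighbour Pcdhgb8, the pseudogene, went from 11.9% to 65.3%. Pcdhgc3 went from 0.557% to 25.6%. Just before this group, Pcdhga11 stood at 4.07% and 15.0% and was not called.

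The 5' windows gained in 3 gamma genes, Pcdhga1 (17.2% to 43.9%), Pcdhgb8 (9.78% to 82.7%) and Pcdhga12 (31.0% to 91.1%). The window of Pcdhga12, with 14 CpGs, held a methylated part before the start, at 79.4% and 91.5% in the bin from −1000 to −500 bp. Inside the gene, Pcdhga12 was at 0.459% and 89.9% from 500 to 1000 bp, at 1.33% and 95.3% from 1000 to 1500 bp, and at 0.879% and 3.87% from 2500 to 3000 bp. The gain of Pcdhga12 therefore ended within the gene. Pcdhgb8 was at 5.69% and 82.7% in the bin at its start and at 2.21% and 40.6% from 1500 to 2000 bp.

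**Figure D4:**
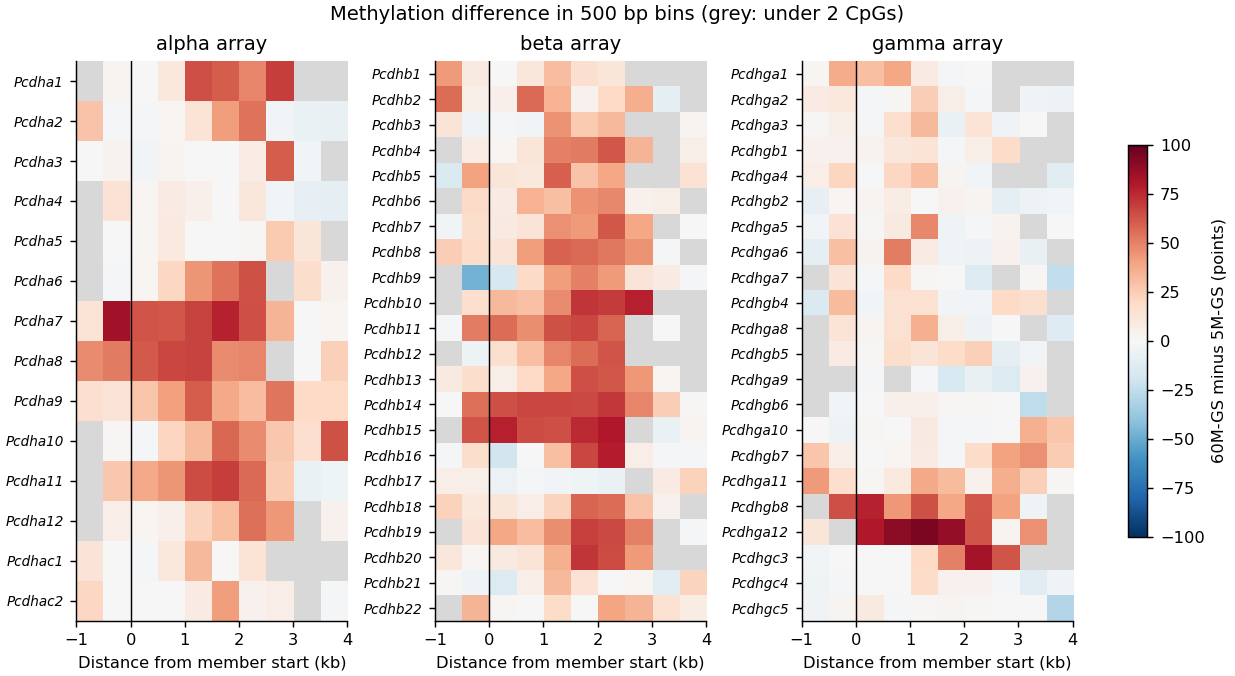
Difference in methylation, 60M-GS minus 5M-GS in percentage points (colour), in 500 bp bins around the start of each gene (x axis, kb; 1 row per gene in chromosome order, by array); bins with fewer than 2 CpGs are grey. Rows with high values over the whole gene (Pcdha8, Pcdhb15, Pcdhgb8) sit beside rows with small values in most bins (Pcdhb17, Pcdhga9), and many gamma genes that were not called over the first 2.5 kb have single bins that are higher in 60M-GS.

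The 5 C-type genes shared low starts, with the exception of Pcdhgc5. The windows were at 3.35% for 5M-GS and 3.70% for 60M-GS for Pcdhac1, at 1.47% and 4.09% for Pcdhac2, at 0.587% and 0.547% for Pcdhgc3, and at 1.30% and 0.378% for Pcdhgc4. The window of Pcdhgc5 stood at 55.6% and 60.3%. None of the 5 windows was called. CpG-dense runs lay across the starts of Pcdhac1 (1.91% and 1.89%), Pcdhac2 (0.564% and 0.646%) and Pcdhgc3 (0.580% and 0.583%).

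Over the first 2.5 kb, only Pcdhgc3 was called among the C-type genes. Pcdhac1 was at 15.5% and 22.5%, Pcdhac2 at 10.6% and 16.8%, Pcdhgc4 at 37.2% and 38.4%, and Pcdhgc5 at 76.5% and 79.1%. The gain of Pcdhgc3 lay toward the 3' side of this stretch. Its bins from −500 to 1000 bp were at 1.20% or less in both libraries, that from 1000 to 1500 bp was at 0.537% and 20.8%, that from 1500 to 2000 bp at 0.277% and 50.4%, and that from 2000 to 2500 bp at 1.10% and 84.2%. Pcdhgc5 was methylated over most of its first 2.5 kb and nearly unmethylated after it, at 0.185% and 0.221% from 2500 to 3000 bp.

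The windows and the first 2.5 kb were called together in 13 genes. The first 2.5 kb alone gained in 16 further genes and gained beside a lost window in Pcdhb9, while 28 genes had neither call. No gene gained in its window alone. The 2 regions of a gene share its first 500 bp, so their calls are not separate observations. Expressed by array, both gained in 4 alpha, 6 beta and 3 gamma genes, and the first 2.5 kb alone in 5 alpha, 10 beta and 1 gamma gene.

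**Figure D5:**
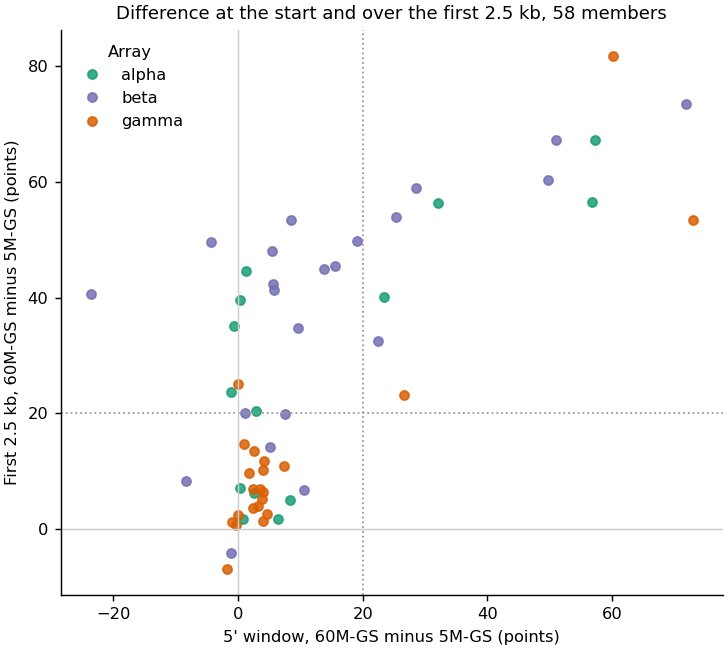
Difference in methylation, 60M-GS minus 5M-GS in percentage points, in the 5' window (x axis) and over the first 2.5 kb (y axis) for the 58 genes, coloured by array. Many alpha and beta genes lie above 20 points on the y axis with window differences near 0, and Pcdhb9 lies to the left with a lost window.

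CpG-dense runs are stretches of 20 or more CpGs no further than 50 bp from one to the next and 200 bp or longer. They numbered 68 in the locus, of which 64 were assigned to a member. The assigned run 3374 to 3661 bp after the start of Pcdhb22 lay past the 3' end of that gene. Of the 68, 30 gained methylation (44.1%, against 5.13 percent of all such runs) and 0 lost it (0.12 percent), by Fisher's exact test. By array these were 13 of 23 alpha runs, 14 of 18 beta runs and 3 of 24 gamma runs. The 1 run of the gamma shared 3' part stood at 1.95% for 5M-GS and 14.0% for 60M-GS. It differed by 12.1 points (8.62 to 15.6) and was not called. Most runs of the genome were nearly unmethylated in 5M-GS, with a median of 0.572%, against 6.00% in the locus. Among the 741 runs of the genome at 5% to 30% in 5M-GS, 59.8 percent gained and 0.27 percent lost methylation. Of the locus runs at such levels, 23 of 34 gained (67.6%), which is near that background.

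For the first 2.5 kb, the shares of the members and of the background lay further apart, but the background is less alike. Of the stretches inside all gene ends with at least 40 CpGs and 5% to 50% in 5M-GS, 7.56 percent gained and 0.0987 percent lost methylation. Of the 49 members in this class, 28 gained (57.1%), among them 9 of 13 alpha, 17 of 22 beta and 2 of 14 gamma genes. The level class was set after the values had been seen, and no test was made of these shares. The class is matched on the mean level over 2.5 kb and the number of CpGs only. It takes in gene ends where an unmethylated start adjoins methylated sequence. Zbtb24, for example, had its 5' window at 0.675% and its first 2.5 kb at 45.5% in 5M-GS. The 2 shares therefore do not show an excess over sequence of the same kind.

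The runs took a typical place in each array. In the beta genes most lay in the second part of the first 2.5 kb, as in Pcdhb15 (1505 to 2068 bp, 15.5% to 91.7%), Pcdhb14 (1526 to 2085 bp, 24.5% to 92.4%) and Pcdhb10 (1737 to 2093 bp, 23.7% to 94.3%). In the numbered alpha genes most lay nearer the start, as in Pcdha7 (1329 to 1667 bp, 21.9% to 94.7%) and Pcdha11 (1239 to 1501 bp, 9.74% to 74.9%). Pcdha3, Pcdha4 and Pcdha5 carried runs at the same place that did not gain, at 4.78% to 7.33% in 5M-GS and 2.94% to 3.82% in 60M-GS, and their second runs, further inside, were not called either. In the gamma array, the run of Pcdhgb5 (1669 to 1923 bp) gained, from 1.31% to 22.7%, although the first 2.5 kb of this gene (3.55% and 17.0%) was not called.

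Genes with more CpGs over the first 2.5 kb tended to have lower levels, less so in 60M-GS. Spearman's rho between the number of CpGs and the level over the 58 genes was −0.69 for 5M-GS and −0.42 for 60M-GS. Within the alpha, beta and gamma arrays, rho was −0.52, −0.54 and −0.73 for 5M-GS and −0.22, −0.21 and −0.46 for 60M-GS. This describes genes of 1 locus in the same 2 libraries, which are not independent replicates.

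At single CpGs covered by 10 or more calls in each table, the first 2.5 kb of the 58 genes held 4487 CpGs. Of these, 2086 (46.5%) were higher by at least 20 points in 60M-GS and 42 were lower by that much, while 6.34% of all CpGs of the genome were higher by that much. A change from at most 10% to at least 80% was seen at 265 CpGs (5.91%, against 0.263% genome-wide), and the opposite change at 0. These shares are of all CpGs and not of those with room to rise. In 5M-GS, 58.1% of the members' CpGs were at 10% or less, while 72.4% of all calls in the genome were methylated. The shares of the members and of the genome are therefore not matched for starting level. The arrays differed in where their CpGs stood. In the beta array, the share of CpGs at 80% or more was 4.22% for 5M-GS and 50.5% for 60M-GS, and the share at intermediate levels of 20% to 80% was 41.7% and 28.7%. In the alpha array, the share at intermediate levels was 17.4% and 38.1%. In the gamma array, the share at 10% or less was 72.8% and 49.97%.

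Other genes annotated inside the locus gave mixed values. Slc25a2, a mitochondrial ornithine carrier gene between the beta and gamma arrays, gained over its span, from 21.8% to 46.3%. The neighbouring Taf7, which encodes a subunit of the general transcription factor TFIID, was at 27.5% and 34.99% over its span and had an end window at 0.685% and 0.688%. The spans of the gene models Gm36858 (49.96% to 91.0%), Gm18150 (36.3% to 77.9%) and Gm20162 (57.9% to 88.1%) gained. The spans of Gm19035, Gm18529, Gm8242, Gm24401 and Gm29994 were not called. Gm37013, Gm38666 and Gm38667 cover most of the locus, from starts close to those of alpha genes to the gamma 3' end, and their span differences of 17.5 to 17.9 points were not called. Outside the locus, the nearest protein-coding genes were not called over their spans, with Zmat2 at 46.2% and 48.8% and Diaph1 at 76.1% and 75.5%.

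The unclustered protocadherins, which lie alone in the genome and encode related adhesion proteins, mostly had unmethylated starts in both libraries. Of 12 listed genes, 9 could be placed by strand, and the median of their 5' windows was 1.51% for 5M-GS and 0.988% for 60M-GS. The window of Pcdh9 gained, from 24.3% to 83.1% on 11 CpGs, and the other 8 windows were not called. None of the 12 spans and none of the 9 stretches of 2.5 kb at the 5' end was called by Fisher's exact test. At the 3' end, the 2.5 kb stretches of Pcdh18 (13.2% to 73.3%) and Pcdh10 (34.1% to 58.9%) gained, and the other tested 3' stretches were not called.

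The second list held 20 genes for CTCF, cohesin and its loading and release factors, DNA methyltransferases and heterochromatin proteins, which are known to act on these arrays or on DNA methylation. None of their 17 placed 5' windows and none of their 20 spans was called by Fisher's exact test. Over the first 2.5 kb, 1 of 17 gained, which is near the 6.21 percent of all such stretches. It was Dnmt1, which encodes the maintenance DNA methyltransferase, at 54.8% and 93.0% at its outermost annotated end, while its window there stood at 94.3% and 92.1%. These are methylation levels and not expression values.

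Depth varied among the members. The median was 26.2 calls per CpG for 5M-GS and 26.9 for 60M-GS over the first 2.5 kb, with a range over genes of 16.7 to 33.3 and of 18.2 to 34.9. The genes of an array are similar in sequence, and how reads that fit several members were treated is not given in the sources used here.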

How the data were processed

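Germline stem cell DNA of 2 culture ages, with 2 replicates each, went into whole-genome libraries made by post-bisulfite adaptor tagging, according to the labels' protocols. The submitters' processing notes name Bismark 0.10.0 and the build mm10. The deposited tables, 1 per age with replicates pooled, give the authors' count of methylated and of unmethylated calls per CpG. They also give the deposited percent of methylated calls, which equalled the value computed here from the counts at every CpG within a tolerance of 1e-06 points.

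Levels, Fisher's exact tests with Benjamini-Hochberg adjustment, and Wilson and Newcombe 95% intervals were computed from the counts with Python 3.11.15, numpy 2.4.6, scipy 1.17.1 and numba 0.67.0. Regions needed 4 or more CpGs, each covered by 5 or more calls in each table, and tests were tried on simulated data. Genes came from a RefSeq table of the same build. Both ends of every gene were tested, and the low-coordinate end is the 5' end of all members. Members, gene lists and tests were chosen with earlier results of these data known. The first 2.5 kb, the classes by level and the 500 bp bins were added after the values had been seen. Every called member is named, with the highest, lowest and most different windows of each array, the C-type genes, and the genes in and beside the locus. Alternatives varied the minimum of calls, depth limit, difference, weighting, test, tile size and definition of runs.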

Additional observations from a re-analysis of the deposited data

How the results depend on the processing

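No paired analysis was possible because the replicates of each age were pooled before deposit, and for the same reason no replicate could be left out. With a difference of at least 10 points, 49 spans and 179 tiles (170 gains and 9 losses) were called. With calls divided by the number of CpGs of a region, a harsher count of independent observations, Fisher's exact test called 3 spans, 7 windows, 14 first stretches of 2.5 kb and 44 tiles, all gains. Tiles of 500 bp gave 213 calls among 717 tested, and runs of at least 10 CpGs and 100 bp gave 79 among 180. As the unweighted mean over CpGs, the difference was 18.6 points in the alpha, 27.0 in the beta and 10.7 in the gamma array, in the same order. Of 464 repeats of the members' windows and first 2.5 kb under other minimums of calls, depth limits and weighting, 460 kept their call and direction and 0 reversed. Pcdhb3 fell just short over the first 2.5 kb at a minimum of 10 calls and as an unweighted mean, as did Pcdhga1 as an unweighted mean, and the window of Pcdhb8 was called as a gain at a minimum of 10 calls. At a median of 21 and 22 calls per CpG, single CpGs are imprecise, and regions with few CpGs (7 in the window of Pcdhb9) rest on few positions.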
